A study of Mus musculus with 6 samples.

Results

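The genes described here are 48 genes that copy DNA or make its building blocks, taken from the deposited gene count table by their gene names. All 48 were among the 43346 genes of the table, and all 48 were among the 17589 genes expressed highly enough to be tested. RNA-seq compared 3 control and 3 senescent samples of mouse adult fibroblasts (MAFs), primary cultures of ear tissue, taken from adult C57BL6/J females. Senescent MAFs had been exposed to 20 Gy of X-rays and cultured for 21 days, and control MAFs were sham irradiated. Both groups were kept at 3% oxygen, were given 100 nM dexamethasone for 2 hours to set their circadian clocks to a common phase, and were collected 12 hours later. Nothing in the sources used here says that the 3 samples of a group came from separate animals. The p-values therefore set the difference between groups against the variation between these samples, which may not be that between animals.

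Before S phase, the origin recognition complex (ORC) binds DNA, and CDC6 and CDT1 load the MCM2-7 helicase ring onto it. In S phase the kinase CDC7 with DBF4 activates the ring, which joins CDC45 and the GINS proteins to unwind DNA ahead of the polymerases, while the clamp PCNA, loaded by RFC, holds the polymerases to the template. Deoxynucleotides come from ribonucleotide reductase, thymidylate synthase and thymidine kinase. Many of these genes are transcribed in late G1 and S phase under E2F transcription factors, and cells that have left the cell cycle are known to hold little of their mRNA.

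Of the 48 genes, 45 were lower in senescent MAFs, against 34.1% of all genes tested, and 2 were higher, against 36.2% of all genes tested (edgeR quasi-likelihood test, adjusted p under 0.05). The 2 higher genes were *Orc2* and *Orc4*, and the remaining gene, *Orc3*, did not pass the test. A decrease of more than 2-fold was found for 41 genes (12.3% of all genes) and one of more than 8-fold for 14 genes (1.72% of all genes). The median log2 fold change of the 48 genes was -2.30, while the median of all genes was 0.0085 and their 5th percentile was -1.70. Summed over the 48 genes, levels in CPM (counts scaled to library size with TMM factors) were 3378 ± 17.9 in control and 791 ± 32.6 in senescent samples (mean ± SD, n = 3, as throughout), a decrease of 4.27-fold. For 47 genes the 3 senescent values did not overlap the 3 control values, which was also so for 75.3% of all genes. In 45 of the 47 the senescent values were the lower ones, against 37.0% of all genes. The samples are bulk RNA, so fewer cells in S phase and less RNA per cell cannot be told apart.

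Total counts per library ranged from 50288454 to 82229553, and no member had fewer than 76 counts in any library. The groups matched their labels on senescence markers, since the kinase inhibitor genes *Cdkn1a* and *Cdkn2a* had log2 fold changes of 2.33 and 1.90, and *Lmnb1*, a nuclear lamina gene that falls in senescence, had -3.55. All 6 proliferation markers tested were lower, and their summed level went from between 1148 and 1180 CPM to between 31.4 and 35.5 CPM. Senescent replicate 3 stood apart from replicates 1 and 2, with a median squared difference of 24.8 and 33.2 times that of sampling chance, against 2.33 times between replicates 1 and 2. Control replicate 1 stood apart less, with 6.04 and 5.17 times against 1.81 times between control replicates 2 and 3. Senescent replicate 3 held the highest senescent value of 26 of the 48 genes and of 32 of the 60 related genes described below. The share over all genes was not computed. The 10 fibroblast markers summed to between 19438 and 21543 CPM in control and between 7742 and 8922 CPM in senescent samples, but they moved in both directions. Of the 10, 6 were lower, the abundant collagen genes *Col1a1*, *Col1a2* and *Col3a1* among them, 3 were higher (*Dcn* with a log2 fold change of 3.50, *Thy1* with 1.47 and *Lum* with 0.85), and *Pdgfrb* was not called. Chondrocyte markers moved with the groups, because 9 of 9 tested were lower, and the list of 10 summed to between 5381.5 and 5925 CPM in control and between 368 and 454 CPM in senescent samples. Their part in the decrease of the replication genes was not tested. *Matn1*, the untested gene of that list, had 10 counts or fewer in every library. Macrophage and endothelial markers also moved with the groups at low levels. All 5 tested of 6 macrophage markers were higher, and the list summed to between 5.59 and 6.05 CPM in control and between 9.94 and 11.9 CPM in senescent samples. All 5 tested of 6 endothelial markers were higher as well, with sums between 2.55 and 2.93 CPM and between 8.16 and 8.71 CPM. Of 6 keratinocyte markers 3 were tested and 1 was lower, and the list summed to between 15.8 and 16.6 CPM and between 7.71 and 7.83 CPM. The part of these lists in the values of the replication genes was not tested. By GENCODE M21 exons, which can differ from the gene models counted, 17 of the 48 genes share bases with another gene of the table. For 14 of them that gene held more than 10% of the member's count.

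**Figure D1:**
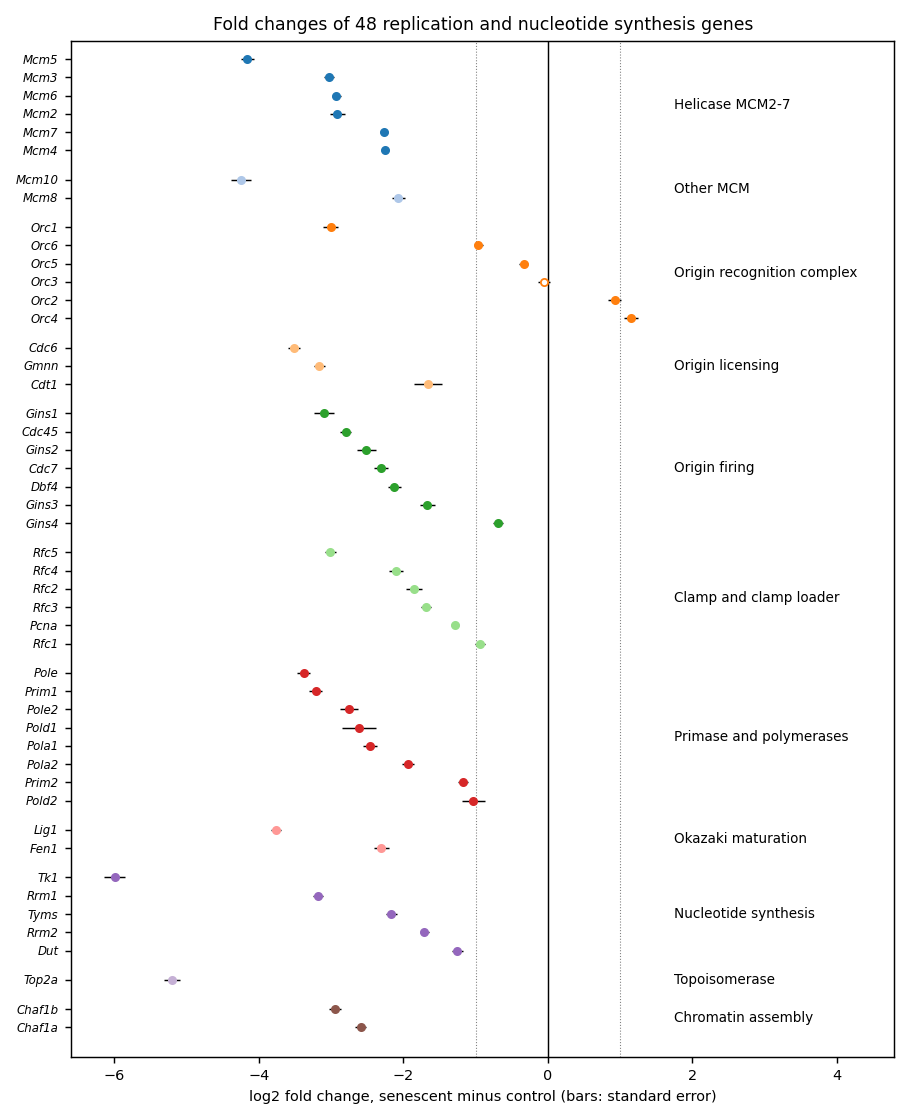
Log2 fold change of each of the 48 genes, senescent minus control (x axis), arranged by role from top to bottom, with standard errors as bars. Filled points passed the test and the open point (*Orc3*) did not, dotted lines mark 2-fold, and of 48 genes only *Orc2* and *Orc4* lie clearly to the right of 0.

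The promoters of 7 members are shown because they place genes of opposite behaviour side by side and mark the E2F sites for which this gene class is known. RefSeq promoters (build GRCm38.p6, 250 bases before to 50 bases after a gene start) matched 40 of the 48 genes. Capitals mark words of the E2F consensus (TTTCCCGC, TTTCGCGC, TTTGCCGC or TTTGGCGC, on either strand) in all but *Top2a*, where they mark CCAAT boxes and the cell cycle homology region TTTGAA on either strand. Each sequence runs 5′ to 3′ on the gene's strand, from 250 to 15 bases before the start. *Mcm5* (chr8:75109259-75109494, plus strand), *Mcm6* (chr1:128359720-128359955, minus strand), *Pola1* (chrX:93632170-93632405, minus strand) and *Orc1* (chr4:108579204-108579439, plus strand) belong to genes that fell by more than 2-fold. *Orc3* (chr4:34614957-34615192, minus strand) did not pass the test, *Orc4* (chr2:48950249-48950484, minus strand) rose and holds no such word, and *Top2a* (chr11:99024204-99024439, minus strand) was, after *Tk1*, the member that fell most.
Mcm5: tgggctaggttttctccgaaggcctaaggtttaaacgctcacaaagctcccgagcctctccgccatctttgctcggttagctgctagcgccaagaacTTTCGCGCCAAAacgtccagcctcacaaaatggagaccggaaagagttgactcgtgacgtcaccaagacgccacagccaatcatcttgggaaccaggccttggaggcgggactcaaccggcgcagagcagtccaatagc
Mcm6: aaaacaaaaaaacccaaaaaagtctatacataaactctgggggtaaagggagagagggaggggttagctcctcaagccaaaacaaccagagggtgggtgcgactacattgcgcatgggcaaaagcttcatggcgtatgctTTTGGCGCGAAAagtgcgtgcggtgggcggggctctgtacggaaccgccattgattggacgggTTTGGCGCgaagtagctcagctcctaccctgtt
Pola1: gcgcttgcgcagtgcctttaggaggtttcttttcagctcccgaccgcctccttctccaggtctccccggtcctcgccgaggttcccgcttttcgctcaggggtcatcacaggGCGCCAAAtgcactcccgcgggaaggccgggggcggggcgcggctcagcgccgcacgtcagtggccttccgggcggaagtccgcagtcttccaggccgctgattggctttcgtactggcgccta
Orc1: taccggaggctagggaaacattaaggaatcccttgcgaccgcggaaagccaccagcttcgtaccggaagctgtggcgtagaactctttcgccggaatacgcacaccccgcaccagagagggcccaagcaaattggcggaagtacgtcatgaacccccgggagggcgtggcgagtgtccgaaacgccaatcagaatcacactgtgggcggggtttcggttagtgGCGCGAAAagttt
Orc3: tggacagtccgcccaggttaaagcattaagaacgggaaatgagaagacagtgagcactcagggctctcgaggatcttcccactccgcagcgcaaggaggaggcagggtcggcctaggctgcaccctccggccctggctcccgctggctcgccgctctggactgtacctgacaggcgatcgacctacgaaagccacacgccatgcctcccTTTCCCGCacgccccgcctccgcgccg
Orc4: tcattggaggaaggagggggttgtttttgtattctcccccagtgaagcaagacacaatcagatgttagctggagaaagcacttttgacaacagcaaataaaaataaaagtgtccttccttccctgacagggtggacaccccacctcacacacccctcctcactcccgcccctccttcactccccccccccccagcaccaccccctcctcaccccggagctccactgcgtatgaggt
Top2a: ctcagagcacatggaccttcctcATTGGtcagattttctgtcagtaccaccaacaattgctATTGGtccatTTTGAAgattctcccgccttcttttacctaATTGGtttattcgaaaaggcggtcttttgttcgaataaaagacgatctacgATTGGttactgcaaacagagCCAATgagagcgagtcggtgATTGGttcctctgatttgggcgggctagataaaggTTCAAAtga

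An E2F word stood in the promoters of 15 of the 40 members matched (37.5%), against 2.60% of 27025 genes with a promoter in the table. Of the members that fell by more than 2-fold, 14 of 34 held one (41.2%), and of the other members 1 of 6 did (16.7%). That 1 gene was *Orc3*, whose word TTTCCCGC began 41 bases before the start and whose mRNA level did not pass the test. The words of *Mcm5*, which begin 153 and 149 bases before the start, overlap on opposite strands, and *Mcm6* holds such an overlapping pair and a further word 47 bases before the start. *Tk1*, *Rrm1*, *Rrm2* and *Top2a* are among the 25 matched members without an E2F word in this window. CCAAT was found in 57.5% of matched members and 41.1% of all genes, and TTTGAA in 20.0% and 20.2%. *Top2a* held 6 CCAAT and 2 TTTGAA words. The start used by RefSeq lay inside the gene model of the count table by 31 bases for *Orc1* and 43 bases for *Orc4*, and by more than 100 bases for 3 of the 15 genes with a word, namely *Cdc6* (350 bases), *Mcm7* (539 bases) and *Lig1* (1543 bases). These are letter matches and no binding was measured at them here.

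**Figure D2:**
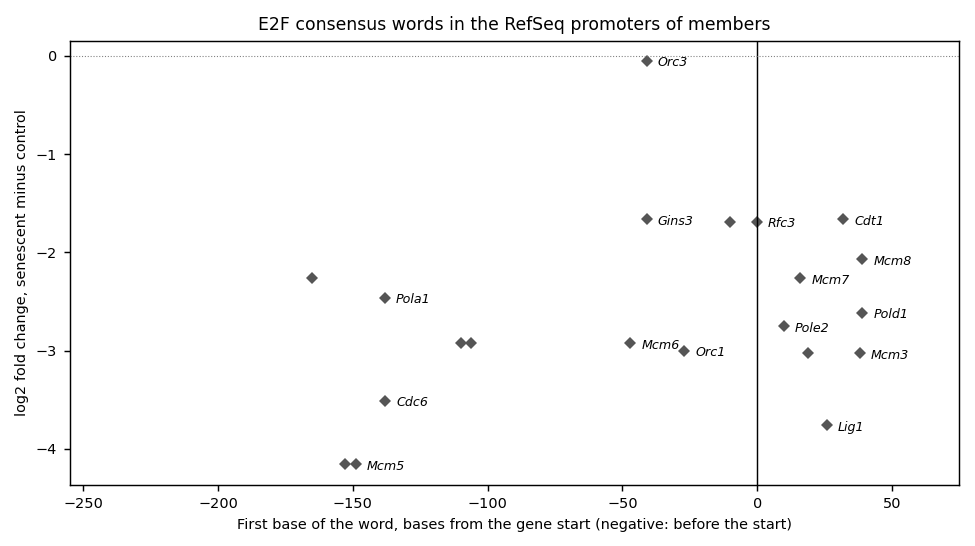
Position of each E2F word in bases from the RefSeq gene start (x axis, 0 is the start base, negative is before it) against the log2 fold change of the gene (y axis, senescent minus control). Each diamond is 1 word, the rightmost word of a gene carries its name, and of the 15 genes shown 14 lie between -4.16 and -1.66, while *Orc3* lies at -0.05.

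All 6 subunits of the MCM2-7 ring, the motor of the replicative helicase, fell, with a median log2 fold change of -2.92. *Mcm5* (chromosome 8 from 75109528 to 75128439 in mm10) fell most within the ring. Its level was 127, 137 and 137 CPM in the control samples and 7.97, 7.82 and 6.71 CPM in the senescent samples. The senescent mean was 5.61% of the control mean (log2 fold change -4.16 ± 0.09 SE, adjusted p = 1.84e-08). *Mcm3*, with a log2 fold change of -3.03, *Mcm6* with -2.93 and *Mcm2* with -2.91 fell by similar amounts, and *Mcm4* with -2.25 and *Mcm7* with -2.26 fell least. *Mcm4* was at 124, 122 and 121 CPM in control and at 25.3, 24.9 and 26.5 CPM in senescent samples. Replicates of both genes lay close together, and neither gene's groups overlapped.

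The ring contains its subunits in equal number, and their mRNA levels per length were near each other in control MAFs. Divided by gene length, the control levels lay between 26.0 CPM per kb (*Mcm2*) and 39.1 CPM per kb (*Mcm5*), a range of 1.5-fold. In senescent MAFs they lay between 2.19 CPM per kb (*Mcm5*) and 7.12 CPM per kb (*Mcm4*), a range of 3.25-fold, so that the highest of the 6 in control was the lowest of the 6 in senescent samples. Within each library, the log2 ratio of *Mcm5* to *Mcm7* counts was -0.07, 0.00 and 0.01 in control and -1.81, -1.91 and -2.02 in senescent samples. The ratio, which does not depend on library scaling, fell by 1.89 (exact permutation test, p = 0.1, the smallest p that 3 against 3 samples allow). The other MCM proteins tested also fell. *Mcm10*, a firing factor, went from 36.9 ± 1.76 to 1.95 ± 0.391 CPM (log2 fold change -4.25), and *Mcm8*, which acts in recombination repair, from 17.9 ± 0.521 to 4.27 ± 0.375 CPM (-2.07).

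The origin recognition complex was the one group whose members moved in different directions. Of its 6 subunits 3 were lower, 2 were higher and 1 was not called, and the median log2 fold change was -0.19. *Orc1*, the subunit that joins the complex in G1, was at 13.8, 12.0 and 12.5 CPM in control and 1.73, 1.49 and 1.58 CPM in senescent samples (log2 fold change -3.004 ± 0.11 SE, adjusted p = 1.77e-07). *Orc6* fell by 0.96 and *Orc5* by 0.33 on the log2 scale. *Orc1* was thus the only subunit that fell by more than 2-fold.

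*Orc4* (chromosome 2 from 48902824 to 48950277) was at 35.5, 34.2 and 34.1 CPM in control and 68.9, 72.0 and 89.95 CPM in senescent samples (log2 fold change 1.15 ± 0.10 SE, adjusted p = 2.96e-05). *Orc2* (chromosome 1 from 58462771 to 58505109) was at 32.9, 31.6 and 31.1 CPM in control and 56.2, 57.0 and 68.3 CPM in senescent samples (0.92 ± 0.09 SE, adjusted p = 3.83e-05). Every senescent sample lay above every control sample for both genes, which encode core subunits of the complex, and senescent replicate 3 was highest for both. *Orc3*, another core subunit, was at 66.1, 61.9 and 61.8 CPM in control and 58.1, 57.1 and 67.8 CPM in senescent samples, and these groups overlapped (log2 fold change -0.05 ± 0.08 SE, adjusted p = 0.580). Without senescent replicate 3, *Orc3* passed the test with a log2 fold change of -0.13 (adjusted p = 0.0158). Exons of *Orc2* share 29.8% of their bases with *Nif3l1* on the other strand, which had a log2 fold change of 0.75, and *Orc4* shares 5.98% with *Acvr2a*, which had 0.78. The strand setting of the counting is not given in the sources used here, so reads of such partners cannot be told apart.

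Per length, the range within the complex went from 5.92-fold in control to 34.1-fold in senescent MAFs. In control, *Orc1* was lowest at 3.68 CPM per kb and *Orc6* highest at 21.8 CPM per kb. In senescent samples *Orc1* was lowest at 0.460 CPM per kb, and *Orc2* was highest at 15.7 CPM per kb. The log2 ratio of *Orc1* to *Orc4* counts was -1.36, -1.51 and -1.45 in control and -5.31, -5.59 and -5.83 in senescent samples, a difference of -4.14 (exact permutation p = 0.1). The ratio of *Orc6* to *Orc4* differed by -2.10.

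**Figure D3:**
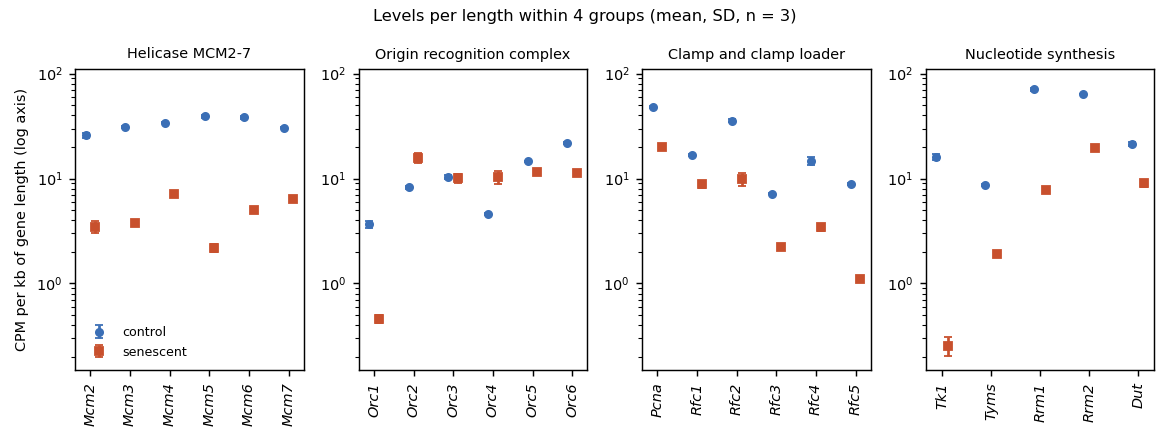
Level per length (y axis, CPM per kb of gene length, log axis) of the genes of 4 groups, as mean and SD of 3 control samples (circles) and 3 senescent samples (squares). The MCM2-7 subunits lie within 1.5-fold of each other in control and 3.25-fold in senescent samples, while *Orc2* and *Orc4* are the genes whose squares lie above their circles.

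The 3 licensing genes fell, with a median log2 fold change of -3.16. *Cdc6*, the ATPase that loads the helicase with ORC, was at 31.5, 29.5 and 29.8 CPM in control and 2.67, 2.52 and 2.75 CPM in senescent samples (log2 fold change -3.51 ± 0.08 SE, adjusted p = 2.56e-08). *Gmnn* encodes geminin, the inhibitor that binds CDT1 after S phase has begun, and its level fell to 11.2% of control (-3.16). *Cdt1* fell less and with a wider spread, from 16.1 ± 1.93 to 5.11 ± 1.28 CPM (-1.66, adjusted p = 1.22e-04), and its senescent replicate 3, at 3.63 CPM, was below the other two. The log2 ratio of *Cdt1* to *Gmnn* was -0.92, -0.63 and -0.57 in control and 1.02, 0.94 and 0.36 in senescent samples. Every senescent library therefore held more *Cdt1* than *Gmnn* counts and every control library fewer (difference 1.48, exact permutation p = 0.1). Counts rise with gene length, which was 2189 bases for *Cdt1* and 1465 bases for *Gmnn*. Divided by length, *Cdt1* was at 7.35 and *Gmnn* at 17.8 CPM per kb in control samples. In senescent samples they were at 2.33 ± 0.587 and 1.99 ± 0.0967 CPM per kb, closer than the SD of *Cdt1*.

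All 7 genes for origin firing fell, 6 of them by more than 2-fold. *Cdc45*, the helicase partner, went from 36.0 ± 1.15 to 5.17 ± 0.296 CPM (log2 fold change -2.80). The 4 GINS subunits form one complex with CDC45 and the ring, yet their changes ran from -3.10 for *Gins1* through -2.51 for *Gins2* and -1.67 for *Gins3* to -0.69 for *Gins4*. *Gins4* was at 30.3, 29.8 and 29.2 CPM in control and 18.1, 17.8 and 19.7 CPM in senescent samples, with no overlap (adjusted p = 5.59e-05). Per length, *Gins4* stood at 13.6 CPM per kb and *Gins1* at 0.795 CPM per kb in senescent MAFs. *Gins2* shares 67.3% of its exon bases with *Gse1* on the other strand, whose log2 fold change was -0.21. The kinase *Cdc7* and its activator *Dbf4* fell together, with log2 fold changes of -2.31 and -2.13, and their log2 ratio differed by only -0.18 between groups.

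All 6 genes of the clamp and its loader fell, with a median log2 fold change of -1.77 beside -2.92 for the helicase ring, a difference that was not tested. *Pcna*, the clamp, was at 115, 115 and 119 CPM in control and 48.2, 46.4 and 48.5 CPM in senescent samples, or 41.0% of control (-1.29 ± 0.05 SE, adjusted p = 3.68e-07). It remained the highest of its group per length in both conditions, at 48.4 and 19.9 CPM per kb. A pseudogene, *Pcna-ps2*, held 438 counts on average, and how reads matching both were counted is not given in the sources used here. The large loader subunit *Rfc1*, which the small subunits *Rfc2* to *Rfc5* join, went from 101 ± 2.43 to 53.0 ± 4.16 CPM (-0.93). The small subunits fell more, by 1.85 (*Rfc2*), 1.69 (*Rfc3*), 2.11 (*Rfc4*) and 3.01 (*Rfc5*) on the log2 scale. *Rfc5* was at 42.4, 40.3 and 41.2 CPM in control and 4.91, 5.38 and 5.05 CPM in senescent samples. *Rfc4* shares 12.7% of its exon bases with *Eif4a2* on the other strand, which held 27226 counts on average against 788. *Rfc5* shares 10.7% with *Wsb2* on the other strand, which held 8609 against 1277. The log2 fold changes of *Eif4a2* and *Wsb2* were 0.25 and 0.53, and the part of shared reads was not tested.

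All 8 primase and polymerase genes fell by more than 2-fold, with a median log2 fold change of -2.54. Within polymerase alpha and its primase, which lay down the first nucleotides of each strand, *Prim1*, the catalytic primase subunit, fell most. It went from 38.5 ± 1.43 to 4.15 ± 0.390 CPM (-3.21), whereas *Prim2*, its partner, went from 31.2 ± 0.481 to 13.9 ± 0.430 CPM (-1.17). The log2 ratio of *Prim1* to *Prim2* was 0.33, 0.27 and 0.32 in control and -1.82, -1.86 and -1.55 in senescent samples. *Pola1*, the catalytic polymerase subunit, and *Pola2* had log2 fold changes of -2.46 and -1.93. *Pole*, the catalytic subunit of the leading strand polymerase, fell to 9.60% of control (-3.38), and its second subunit *Pole2* to 14.8% (-2.75). *Pold1*, catalytic subunit of polymerase delta, was at 30.7, 39.3 and 39.8 CPM in control and 6.01, 7.90 and 4.05 CPM in senescent samples, the widest spread of the 48 genes by the standard error of its log2 fold change (-2.61 ± 0.23 SE, adjusted p = 2.80e-05). *Pold2* fell by 1.03 on the log2 scale, just past 2-fold. Both polymerase delta genes were lowest in replicate 1 among control and in replicate 3 among senescent samples.

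Of the enzymes that join Okazaki fragments, the ligase *Lig1* had the smallest adjusted p of the 48 genes. It was at 88.2, 92.6 and 90.2 CPM in control and 6.69, 6.84 and 6.43 CPM in senescent samples (log2 fold change -3.76 ± 0.06 SE, adjusted p = 1.02e-08). *Fen1*, the flap endonuclease that trims the fragments, fell to 20.3% of control (-2.30). The chromatin assembly factor CAF-1 places histones behind the fork. The mRNA of its subunits among the 48 genes fell to a similar extent, with log2 fold changes of -2.59 for *Chaf1a* and -2.95 for *Chaf1b*. *Rbbp4*, a CAF-1 subunit outside the 48 genes, fell less (-0.63, adjusted p = 1.76e-04). In GENCODE M21, *Chaf1a* shares 4648 exon bases (52.5%) with *Ubxn6* on the other strand, whose log2 fold change was -0.31. The *Chaf1a* gene length deposited with the counts was only 3308 bases, so this share does not hold for the gene model counted. *Top2a*, the topoisomerase that separates sister chromatids (chromosome 11 from 98992943 to 99024189), had the highest control level in CPM of the 48 genes. It was at 540.4, 513 and 498 CPM in control and 12.7, 13.1 and 16.2 CPM in senescent samples, a decrease of 36.9-fold (-5.20 ± 0.11 SE, adjusted p = 2.28e-08).

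The 5 genes of nucleotide synthesis all fell by more than 2-fold, but from 2.38-fold to 63.5-fold. *Tk1*, the cytosolic thymidine kinase (chromosome 11 from 117815526 to 117826092), fell most of the 48 genes. It was at 77.7, 87.9 and 87.1 CPM in control and 1.46, 1.51 and 1.01 CPM in senescent samples, which is 1.58% of control (log2 fold change -6.00 ± 0.15 SE, adjusted p = 3.60e-08). The senescent values rest on 81, 120 and 85 counts. *Tyms*, thymidylate synthase, went from 52.6 ± 1.34 to 11.7 ± 0.806 CPM (-2.17), and *Dut*, the dUTPase that keeps uracil out of DNA, from 51.5 ± 2.03 to 21.6 ± 1.40 CPM (-1.25).

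The subunits of ribonucleotide reductase fell to different extents. *Rrm1*, the large subunit, was at 293, 282 and 278 CPM in control and 30.3, 30.1 and 33.5 CPM in senescent samples (-3.18 ± 0.07 SE). *Rrm2*, the small subunit of S phase, was at 177, 176 and 177 CPM in control and 52.8, 51.6 and 57.9 CPM in senescent samples (-1.71 ± 0.06 SE). Neither gene's groups overlapped, and the order of the pair turned. Per length, *Rrm1* was above *Rrm2* in control (71.1 against 63.8 CPM per kb) and below it in senescent MAFs (7.83 against 19.5 CPM per kb). The log2 ratio of *Rrm2* to *Rrm1* counts was -0.73, -0.68 and -0.65 in control and 0.80, 0.78 and 0.79 in senescent samples (difference 1.47, exact permutation p = 0.1).

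**Figure D4:**
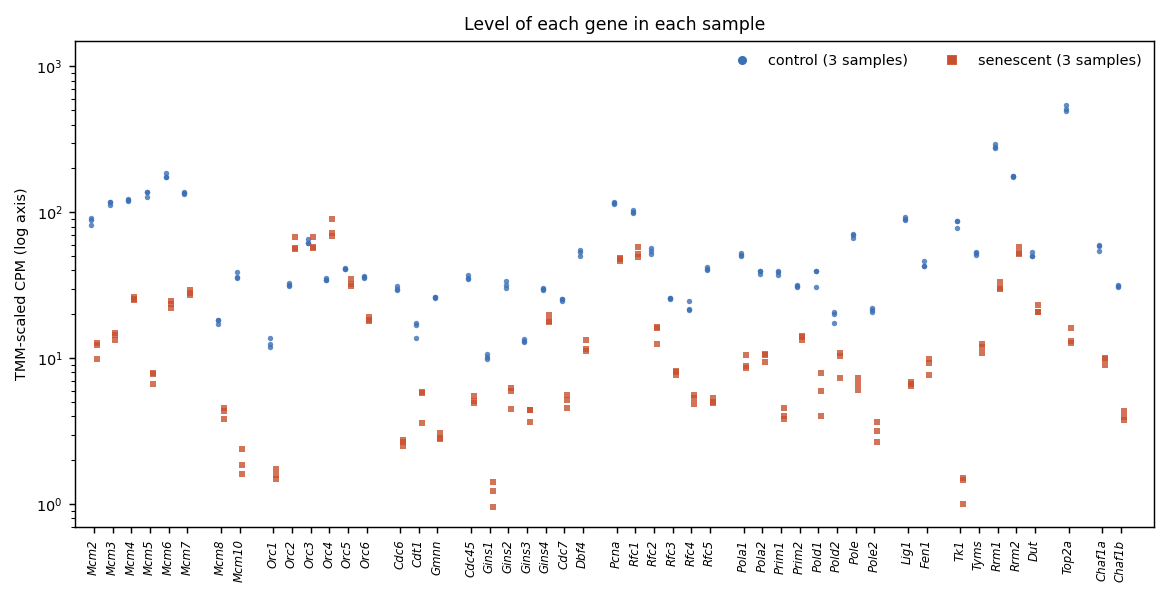
TMM-scaled CPM (y axis, log axis) of each of the 48 genes in 3 control samples (circles) and 3 senescent samples (squares), grouped by role along the x axis. CPM is not divided by length here, so circles and squares are to be compared within a gene: they are separated for 47 genes and mixed for *Orc3*.

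Paralogues and partners gave a comparison within each library. For 16 pairs the log2 ratio of counts was compared between groups, and in all 16 the groups did not overlap. Groups also did not overlap for 75.3% of all single genes, and the share among other gene pairs was not computed. The pairs were chosen with earlier results of these data known, so this count is a description only. Both genes were among the 48 in 8 pairs, 1 gene was in 7 pairs, and the pair *Asf1b*/*Asf1a* held none. Each exact permutation p was 0.1, the smallest possible, and 0.1 after Benjamini-Hochberg adjustment over the 16 pairs, so no pair can pass 0.05 by this design. *Tk1* stood above the mitochondrial thymidine kinase *Tk2* in control (log2 ratios 2.41, 2.57 and 2.50) and below it in senescent samples (-4.36, -4.27 and -4.79), a difference of -6.96. *Tk2* itself rose from 14.96 ± 0.409 to 29.2 ± 1.07 CPM (log2 fold change 0.96, adjusted p = 7.12e-06).

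*Rrm2b*, the small reductase subunit that is known to act outside S phase and to respond to p53, also rose. It was at 13.4, 13.2 and 12.6 CPM in control and 31.5, 30.6 and 40.7 CPM in senescent samples (1.39 ± 0.12 SE, adjusted p = 2.22e-05). The log2 ratio of *Rrm2* to *Rrm2b* went from 3.76 ± 0.048 to 0.67 ± 0.140. *Rrm2* counts therefore exceeded *Rrm2b* counts in every library of both groups. *Top2a* to *Top2b*, the topoisomerase expressed outside the cell cycle, differed by -4.56, and *Lig1* to *Lig3*, a ligase of DNA repair and mitochondria, by -3.21. Unlike *Tk2* and *Rrm2b*, *Top2b* and *Lig3* themselves fell, with log2 fold changes of -0.65 (adjusted p = 7.81e-04) and -0.55 (adjusted p = 1.25e-04). The histone chaperone *Asf1b* fell (-4.27) while its paralogue *Asf1a* had a log2 fold change of -0.02 (adjusted p = 0.827), and their ratio differed by -4.24.

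Accessory subunits of the polymerases were compared in 2 of the pairs. *Pole3*, a histone fold subunit of polymerase epsilon, had a log2 fold change of 0.04 (adjusted p = 0.561), and the ratio of *Pole2* to *Pole3* differed by -2.81. *Pold4*, the smallest subunit of polymerase delta, was at 24.6, 29.7 and 27.4 CPM in control and 41.0, 40.0 and 29.2 CPM in senescent samples. These groups overlapped, though the test called an increase (0.43 ± 0.14 SE, adjusted p = 0.0229), and the ratio of *Pold1* to *Pold4* differed by -3.07. Accessory subunits outside the pairs moved in both directions. *Pold3* of polymerase delta fell (-1.52, adjusted p = 5.26e-07), and *Pole4* of polymerase epsilon rose (0.41, adjusted p = 2.93e-03). Smaller differences were those of *Mcm8* to *Mcm9* (-0.76) and *Rfc3* to *Rfc1* (-0.76). *Mcm9* itself had a log2 fold change of -1.31.

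**Figure D5:**
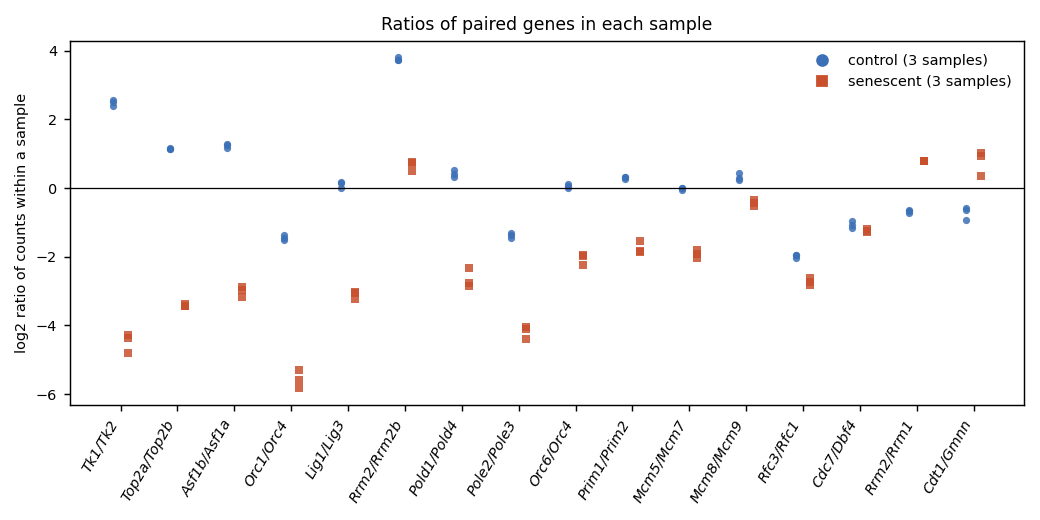
Log2 ratio of the counts of 2 genes within each library (y axis) for 16 pairs (x axis), in 3 control samples (circles) and 3 senescent samples (squares). In 14 pairs the squares lie below the circles, most for *Tk1*/*Tk2* (-6.96), and in the pairs *Rrm2*/*Rrm1* and *Cdt1*/*Gmnn* they lie above.

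A further 60 genes of replication, replication-coupled chromatin assembly and nucleotide metabolism were examined beside the 48. Of these, 49 were lower, 7 were higher and 4 were not called, with a median log2 fold change of -1.04, and 32 fell by more than 2-fold. Over all genes tested, 34.1% were lower, 36.2% were higher and 12.3% were lower by more than 2-fold. The decreases were led by *Pclaf* (-5.80), which encodes a PCNA-binding protein, *Ticrr* (-4.55), which encodes the firing factor treslin, *Dscc1* (-4.51), part of an alternative clamp loader, the exonuclease gene *Exo1* (-4.48) and the checkpoint mediator gene *Clspn* (-4.39). Of 34 further fork and firing genes, 30 were lower and 2 were higher (median -1.30), and of 8 chromatin genes 7 were lower and none was higher. Of 18 further nucleotide metabolism genes, 12 were lower and 5 were higher, with a median of -0.38. The lists were not tested against each other. Beside *Rrm2b* and *Tk2*, the largest increases were in *Dctd* (0.89), the dCMP deaminase, *Ctps* (0.81), a CTP synthase, and *Pold4* (0.43).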

How the data were processed

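Polyadenylated RNA was sequenced from 3 control and 3 senescent samples (stranded libraries from 200 ng RNA, paired reads of 100 bases). Within MAPRSeq, the authors aligned the reads by STAR (build mm10) and assigned them to genes by Subread, and the deposited values are raw counts. The strand setting, the treatment of reads mapping to several places and the annotation are not given in the sources used here. The gene lengths deposited beside the counts were used for CPM per kb. The BMAL1 ChIP-seq, knockout cells and qPCR were not analysed here.

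From the counts, genes were filtered with filterByExpr, TMM factors scaled the libraries, and the groups were tested by the two-sided quasi-likelihood test of edgeR 4.0.16 (R 4.3.3, robust, group as the only term), with Benjamini-Hochberg adjustment over 17589 genes and a threshold of 0.05. Standard errors (SE) were derived as the absolute log2 fold change divided by the square root of the F statistic of the quasi-likelihood test. Log2 ratios used 0.5 added counts and exact permutation tests (SciPy 1.17.1, two-sided). Alternatives were RLE scaling, library size alone, no filter beyond 1 count, at least 10 counts in every library, DESeq2 1.42.0, a replicate block, 2 added counts and each library left out. Members, lists and pairs were chosen with earlier results of these data known. Any member could be named, of the related lists the 5 largest decreases and increases and the genes in pairs, and all tested neighbours. *Rbbp4*, *Pold3* and *Pole4* were named in addition, as further subunits of complexes described here. Promoters came from RefSeq GRCm38.p6, neighbours and shared exons from GENCODE M21. In simulated data for the comparison of the groups over 17370 genes, 50 of 50 genes were recovered at each log2 fold change of -3, -1, 1 and 3, with 12 false calls. The simulation gave every gene the same spread, changed few genes, all with ample counts, and held no outlying library. It therefore checks the code and does not measure error rates in these data. Reads carried no molecular identifiers.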

Additional observations from a re-analysis of the deposited data

How the results depend on the processing

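The members lower in senescent samples numbered 45 under RLE scaling, library size alone, both other filters, DESeq2 and the replicate block, and 45 to 46 when 1 library was left out. The 2 higher members remained 2 throughout. Members lower by more than 2-fold numbered 40 to 41 and those past the unadjusted p and fold limit of the study's methods 41 to 42, and related genes numbered 49 to 50 lower and 5 to 7 higher. Past that unadjusted p and fold limit, 12.3% of all genes were lower and 17.8% were higher in the main analysis. *Orc3* changed sign with library size alone (0.026, adjusted p = 0.788) and without senescent replicate 2 (0.0022, adjusted p = 0.984), and passed the test without senescent replicate 3 (-0.13). The cause was not tested. The other 47 members kept their direction and their call under every setting run. Same-numbered control and senescent samples had correlations of -0.145, 0.135 and -0.120 in their deviations, which gave no sign that the numbers pair the samples. With 3 samples per group, these values cannot exclude a pairing. With the replicate block 45 members were lower, 2 higher and 11624 of all genes were called, against 12365 without it. The 16 ratios kept their direction with 2 counts added to each gene in place of 0.5 and without each library. The median log2 fold change of all genes moved to 0.09 at most between scalings. Without a filter it was 0.31 over 29776 genes. With at least 76 counts per library, depth did not limit the calls of the members, whereas a change of *Orc3* smaller than the spread between its samples was not detectable.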

Other observations

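Some of the 48 genes start close to a gene on the other strand, and such neighbours share a short stretch of DNA with the member. In GENCODE annotation of GRCm38, 21 of the 48 genes had a coding or noncoding gene of the other strand starting within 1000 bases. The share of all genes with such a neighbour was not computed. Of these neighbours, 19 were tested. Of the 19, 9 were lower (47.4%, against 34.1% of all genes), 6 were higher (31.6%, against 36.2% of all genes) and 4 were not called, which is near the shares over all genes. *Trmt6*, which encodes a subunit of a tRNA methyltransferase and starts 86 bases from *Mcm8* (-2.07), was at 31.1, 29.8 and 30.2 CPM in control and 48.01, 48.02 and 51.3 CPM in senescent samples (log2 fold change 0.69, adjusted p = 2.3e-05). *Ufd1*, which encodes a partner of the VCP segregase and starts 208 bases from *Cdc45* (-2.80), went from 66.1 ± 1.08 to 106 ± 3.68 CPM (0.69). *Slc25a40*, a mitochondrial carrier gene 134 bases from *Dbf4* (-2.13), had a log2 fold change of -0.01 (adjusted p = 0.962).

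The members' median log2 fold change of -2.30 lies past the 5th percentile of all genes (-1.70). A lower neighbour was therefore likely to fall by less than its member, whatever its position. Of the 9 lower neighbours, 8 had a smaller decrease than the member beside them, and the exception was the noncoding *6030443J06Rik* (-0.36) beside *Orc5* (-0.33). The 6 that code for protein were *Prpf38a* (-0.32) beside *Orc1* (-3.004), the DNA repair kinase gene *Prkdc* (-0.54) beside *Mcm4* (-2.25), *Tmem258* (-0.64) beside *Fen1* (-2.30), *Afmid* (-0.77) beside *Tk1* (-6.00), *Pxmp2* (-0.86) beside *Pole* (-3.38) and *Ap4m1* (-1.42) beside *Mcm7* (-2.26). *Vps35* beside *Orc6* and *Abhd12* beside *Gins1* rose by 0.22 and 0.27 on the log2 scale, while *Rars2* beside *Orc3* (-0.09) and *Mbd5* beside *Orc4* (-0.05) did not pass the test. Of 6 noncoding neighbours tested, 3 were lower, 2 were higher and 1 was not called. Beside *6030443J06Rik*, *Gm10614* by *Gins2* (-0.92) and *AV099323* by *Pcna* (-0.72) were lower, and *Gm15834* by *Orc2* (0.54) and *Gm15728* by *Rfc5* (2.27) were higher. *Ap4m1*, *Tmem258*, *Afmid*, *Vps35*, *Ufd1* and *Mbd5* overlap exons of their member on the other strand, and the part of such shared reads was not tested.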
